A study of Mus musculus with 36 samples.

Results

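The 36 genes described here make cholesterol and fatty acids in mouse cells, sense sterols, or export them. They were listed by symbol, with earlier results of these data known, and all 36 had a row among the 24127 genes of the deposited table. By role, 8 act in the mevalonate arm of cholesterol synthesis, 10 in the sterol arm that follows it, 6 in sterol sensing and transport, 8 in fatty acid synthesis and 4 in the response to the liver X receptor (LXR). RNA was sequenced from GM-CSF-cultured bone-marrow-derived dendritic cells, positively selected for CD11c, of LGP2-/- (Dhx58-/-, here KO) mice and of WT (C57BL/6J) mice. KO cells given PAMP RNA, KO mock cells, WT cells given PAMP RNA and WT mock cells were each collected at 1, 3 and 6 h. Each of these 12 groups has 3 libraries. PAMP RNA is the poly-U/C RNA of hepatitis C virus, an agonist of the RNA sensor RIG-I, and was transfected at 20 ng; the labels call the cells without it both mock-treated and untreated. The labels give no age, sex or number of mice. They call the 3 libraries of a group biological triplicates without saying whether they come from separate mice, so the p-values below measure the spread between these libraries.

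Animal cells build cholesterol from acetyl-CoA through mevalonate, isoprenoid diphosphates, squalene and lanosterol, and build fatty acids from the same acetyl-CoA. When membranes of the endoplasmic reticulum are low in sterol, SCAP carries the SREBP transcription factors to the Golgi, where they are cleaved and then induce most genes of both pathways; INSIG proteins hold SCAP back when sterol is plentiful. LXR responds to oxysterols and induces cholesterol exporters, and in macrophages type I interferon signalling is known to lower sterol synthesis.

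Reads in genes numbered 4740909 to 14255730 per library, and Pearson's r of log2 values within a group was at least 0.989. Values are DESeq-normalized read counts, in which each library's reads were divided by 1 factor. The sum of normalized counts was higher after PAMP RNA: at 6 h it averaged 10365227 in KO cells with PAMP RNA against 7394676 in KO mock cells, and 9621719 in WT cells with PAMP RNA against 7427805 in WT mock cells. Results that depend on this scaling are given with the alternative beside them. The 6 dendritic cell markers summed to 24256.6 to 38889.2 in KO libraries and 36203.8 to 49781.8 in WT libraries, and at each time every KO library was below every WT library of the same treatment. At 6 h the sums were 38136.8 to 38889.2 in KO cells with PAMP RNA against 29205.9 to 30529.3 in KO mock cells, and 48770.5 to 49781.8 in WT cells with PAMP RNA against 41389.2 to 43559.1 in WT mock cells. Summed macrophage markers (4 of 5 measured) ranged from 8171.0 to 17268.8, neutrophil markers (5 of 6 measured) from 103.4 to 225.7, stromal markers from 9.6 to 38.4 and NK cell markers from 0.8 to 18.8. B cell markers reached at most 7.6, and T cell and erythroid markers 7.0, with Cd3g and Hbb-bs at 0. The neutrophil gene S100a9 rose in KO cells at 3 h by 0.63 and at 6 h by 1.13 (SE 0.23, limma, adjusted p = 2.17e-05). S100a8 rose in KO cells at 6 h by 0.51, while neither was called in WT cells at 3 or 6 h. The difference of responses, KO minus WT, was not called for either gene at 3 or 6 h. At 6 h it was 0.88 for S100a9 (SE 0.32, limma, adjusted p = 0.0674) and 0.39 for S100a8 (SE 0.19, adjusted p = 0.189). The part of any marker in the members' results was not tested. The targeted gene, Dhx58, had 137.0 to 178 counts in KO cells with PAMP RNA against 108 to 214 in KO mock cells at 1 h, 567 to 614 against 377 to 521 at 3 h, and 807 to 1012 against 634 to 808 at 6 h. In WT cells it had 91.9 to 105 with PAMP RNA against 83.6 to 103 in mock cells at 1 h, 1428 to 1546 against 115 to 142 at 3 h, and 2941 to 3066 against 273 to 362 at 6 h. At 6 h its KO response was smaller than its WT response by 2.93 on the log2 scale (SE 0.19, limma, adjusted p = 3.82e-15), as the label would have it, whereas mock cells labelled KO had more Dhx58 reads than WT mock cells (log2 difference 1.19, SE 0.08, adjusted p = 8.35e-17). The labels do not say which part of Dhx58 was deleted, so these gene-level counts do not check the genotype. An antisense gene, Dhx58os, overlaps it, and the library kit did not mark the strand. Below, KO means labelled KO.

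RefSeq promoter windows of GRCm38.p6, from 250 bases before to 50 after the start of transcription, were matched by symbol for 28 of the 36 genes. Upstream sequences are shown for 4 of them because they stand for the ways the members moved: Hmgcs1 and Insig1, whose 6 h responses differed between the genotypes, Idi1, which rose, and Fasn, which fell. Each line gives the 250 bases before the start, 5′ to 3′ on the gene's strand, with capitals on CCAAT, the NF-Y box, on either strand (ATTGG on the other one), and on TCACNCCAC, a sterol regulatory element (SRE) to which SREBPs bind.
Hmgcs1, chr13:119690101-119690350, plus strand: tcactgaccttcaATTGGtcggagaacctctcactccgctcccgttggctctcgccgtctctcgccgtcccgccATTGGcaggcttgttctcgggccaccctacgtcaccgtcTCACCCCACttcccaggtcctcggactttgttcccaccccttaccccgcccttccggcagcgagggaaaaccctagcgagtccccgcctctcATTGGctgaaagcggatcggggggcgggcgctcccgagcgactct
Insig1, chr5:28071162-28071411, plus strand: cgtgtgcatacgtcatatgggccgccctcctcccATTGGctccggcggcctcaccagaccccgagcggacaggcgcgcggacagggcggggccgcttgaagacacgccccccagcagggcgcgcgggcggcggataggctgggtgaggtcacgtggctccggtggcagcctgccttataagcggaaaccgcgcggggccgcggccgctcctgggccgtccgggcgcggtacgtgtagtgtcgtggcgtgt
Idi1, chr13:8885356-8885605, plus strand: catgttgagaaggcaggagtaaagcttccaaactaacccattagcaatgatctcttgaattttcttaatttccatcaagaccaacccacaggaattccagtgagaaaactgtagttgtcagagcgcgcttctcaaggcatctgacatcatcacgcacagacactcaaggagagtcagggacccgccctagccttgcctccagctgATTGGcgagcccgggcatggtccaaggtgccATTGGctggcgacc
Fasn, chr11:120824548-120824797, minus strand: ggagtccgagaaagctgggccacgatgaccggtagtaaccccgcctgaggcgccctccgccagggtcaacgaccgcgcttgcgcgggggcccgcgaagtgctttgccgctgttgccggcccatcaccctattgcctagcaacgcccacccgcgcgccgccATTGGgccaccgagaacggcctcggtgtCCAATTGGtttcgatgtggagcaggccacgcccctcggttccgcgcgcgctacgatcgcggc
CCAAT, searched on both strands, lay in the windows of 21 of the 28 members (75.0%), against 41.1% of the 27025 genes with a window. The forward and reverse matches overlap at 1 place in Fasn. By 6 h call in KO cells, CCAAT was in 4 of the 5 members with a window that rose, 15 of the 20 that fell and 2 of the 3 not called. In WT cells it was in 6 of 7 that rose, 10 of 15 that fell and 5 of 6 not called, so members of every class of response carried it. The SRE letters lay in 1 of the 28 members, Hmgcs1, at -137 to -129 from the start, against 1.44% of genes. Only exact matches to these letters were counted, and the Srebf2 window holds TCACCCCAT, which differs in the last letter. A pair of GAAA spaced by 2 bases, the core of an interferon-stimulated response element, lay only in Ebp, against 3.99% of genes, and an AGGTCA repeat spaced by 4 bases, as LXR binds, with at most 2 mismatches, only in Dhcr7, against 3.47% of genes. Looser matches to the LXR letters, with more mismatches, were not counted. Windows of Abca1, Fasn and Srebf1 hold such a match, and the other windows were not searched for them. The counts therefore do not show that a window lacks an LXR site or an SRE. These matches are a description of letters in the windows.

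In the fit across all genes, limma was run on log2(normalized count + 1) over the 11853 genes with a mean of at least 10, all 36 members among them. A gene is called at a Benjamini-Hochberg adjusted p under 0.05 over those genes. Changes are PAMP RNA minus the time-matched mock cells of the same genotype, on the log2 scale, with their standard error (SE).

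At 1 h the members had not moved by more than the libraries' spread. No member was called in either genotype by limma, edgeR or DESeq2, with changes between -0.18 and 0.14 in KO cells and between -0.21 and 0.18 in WT cells. At an unadjusted p under 0.05, 5 members were lower in KO cells and 3 in WT cells, and 0 were higher. The median member changed by -0.04 in KO cells and -0.06 in WT cells, against a median gene of -0.012 in both. Of all genes, 1.19% were called higher and 0.169% lower in KO cells, and 0.801% and 0.143% in WT cells.

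At 3 h calls went both ways: Scd2, Fads1, Dhcr7, Sqle and Stard4 were among the falls in both genotypes, and Idi1, Insig1 and Abcg1 among the rises. In KO cells 6 members rose and 10 fell, which is 16.7% and 27.8% of the 36, against 23.8% and 26.9% of all genes. In WT cells 7 rose and 10 fell, or 19.4% and 27.8%, against 19.6% and 22.0% of all genes. These shares were near or below those of all genes, and the median member changed by -0.08 in KO cells and -0.06 in WT cells. Of all calls over the genome at 3 h, rises made up 47.0% in KO cells and 47.1% in WT cells; with equal library totals they made up 20.8% and 23.0%, and with quantile normalization 34.8% and 33.9%. The rises that remained with both scalings in both genotypes were Idi1, Insig1 and Abcg1. Of the 10 falls in each genotype, 9 were shared (90% of each list), and the 6 rises of KO cells were all among the 7 of WT cells. The sharing of calls over all genes is not given here, so this overlap is not read as a trait of the members.

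At 6 h falls outnumbered rises. In KO cells 7 members rose and 25 fell, or 19.4% and 69.4% of the 36, against 35.1% and 36.5% of all genes. In WT cells 9 rose and 20 fell, or 25.0% and 55.6%, against 32.1% and 33.3% of all genes. The median member changed by -0.46 in KO cells and -0.30 in WT cells, with the median gene at -0.029 and -0.023. All 20 falls of WT cells were among the 25 of KO cells (80% of the KO list), and 6 rises were shared (85.7% of the KO list, 66.7% of the WT list). As at 3 h, the sharing over all genes is not given, so the overlap is a description of the members only. With libraries scaled to equal totals in place of the deposited scaling, the median gene shifted by -0.48 in KO cells and -0.37 in WT cells. The members then split into 3 rises and 29 falls in KO cells, and 3 rises and 30 falls in WT cells. All 25 KO falls and all 20 WT falls remained, and the rises that remained in both genotypes were Idi1, Nr1h3 and Abcg1. With that scaling the share of calls over all genes that were rises was 20.2% in KO cells and 20.8% in WT cells, against 49.0% in both with the deposited scaling. Whether a cell made less of an RNA or fewer cells made it cannot be told apart in bulk samples.

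**Figure D1:**
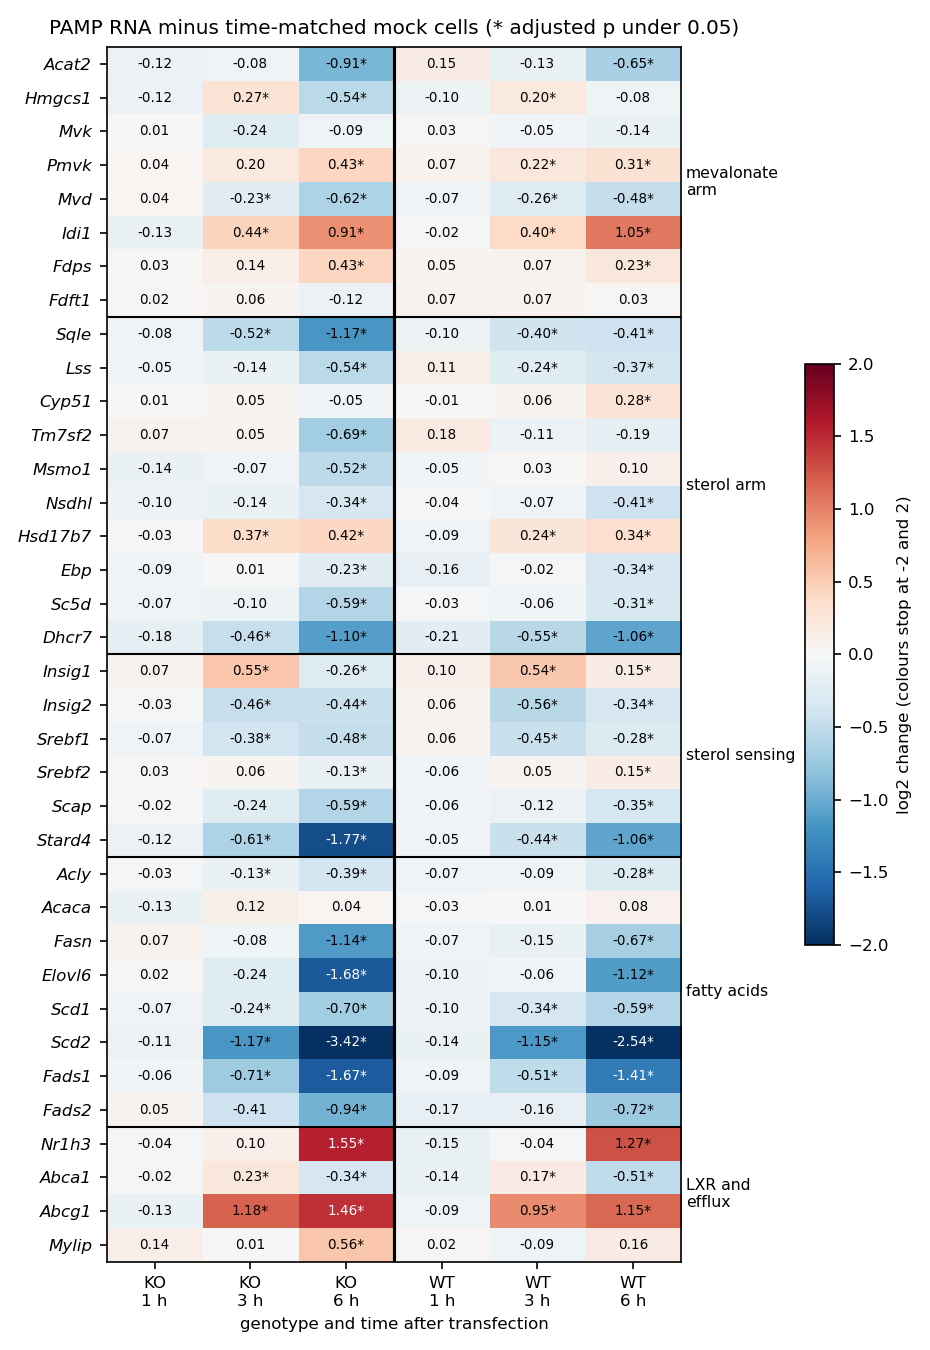
Log2 change of each of the 36 genes (rows, by role) with PAMP RNA against time-matched mock cells, in KO cells (left 3 columns) and WT cells (right 3 columns) at 1, 3 and 6 h; a star marks an adjusted p under 0.05 in limma. The 1 h columns hold no star, and the 6 h columns hold 7 rises and 25 falls in KO cells against 9 rises and 20 falls in WT cells.

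The steepest falls were in fatty acid synthesis, where 7 of the 8 genes fell in each genotype at 6 h and 0 rose. Falls were thus 87.5% of the 8, against 36.5% of all genes in KO cells and 33.3% in WT cells. Of all genes, 35.1% rose in KO cells and 32.1% in WT cells. The median of the 8 changes was -1.04 in KO cells and -0.69 in WT cells. Scd2, a stearoyl-CoA desaturase that puts the first double bond into saturated fatty acids (GRCm38 chr19:44293674-44306864), changed most of the 36. It had 952, 999 and 958 normalized counts in KO cells with PAMP RNA at 6 h, against 10259.6, 10523 and 10366 in KO mock cells. WT cells had 1173, 1539 and 1223 with PAMP RNA, against 6028, 8288 and 8744 in mock cells. Every library with PAMP RNA lay far below every mock library, and those of KO cells lay below those of WT cells. Scd2 fell by 3.42 in KO cells (SE 0.08, adjusted p = 7.76e-37) and by 2.54 in WT cells (SE 0.08, adjusted p = 1.97e-31). At 3 h it had 5196, 5371 and 5281 counts in KO cells with PAMP RNA against 11515, 12655 and 11574 in KO mock cells, and 4231, 4249.6 and 4394 in WT cells with PAMP RNA against 9039, 9849 and 9724 in WT mock cells. The changes at 3 h were -1.17 in KO cells and -1.15 in WT cells (SE 0.08 each). Its paralog Scd1 fell by 0.70 in KO cells and 0.59 in WT cells at 6 h; reads shared between these near copies could be split by the counting, which is not described.

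Fads1, a desaturase of polyunsaturated fatty acids (chr19:10182888-10196877), had 141, 180.4 and 164 counts in KO cells with PAMP RNA at 6 h, against 547, 506 and 494 in KO mock cells. The WT values were 156, 193 and 162 with PAMP RNA and 444, 479 and 438 in mock cells. The treated libraries of both genotypes shared a range well below all mock libraries. Fads1 fell by 1.67 in KO cells (SE 0.08, adjusted p = 5.47e-24) and 1.41 in WT cells (SE 0.08, adjusted p = 5.51e-21), after changes of -0.71 and -0.51 at 3 h. Its neighbour Fads2, which acts before it on the same fatty acids, fell by 0.94 in KO cells (SE 0.20, adjusted p = 4.24e-05) and 0.72 in WT cells (SE 0.20, adjusted p = 0.0015). The WT call of Fads2 was lost without the first WT library with PAMP RNA at 6 h.

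Elovl6, which lengthens palmitate (chr3:129532355-129638495), had few reads: 47.9, 35.8 and 45.1 counts in KO cells with PAMP RNA at 6 h, against 138, 142 and 136 in KO mock cells. WT libraries had 44.8, 51.0 and 53.1 with PAMP RNA and 108, 134 and 88.0 in mock cells. The treated ranges of the genotypes overlapped and lay below every mock library. Elovl6 fell by 1.68 in KO cells (SE 0.11, adjusted p = 3.86e-18) and 1.12 in WT cells (SE 0.11, adjusted p = 3.77e-12), and at 3 h it was not called in either genotype.

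Fasn, the synthase that builds palmitate (chr11:120805846-120824547), had 269, 324 and 339.6 counts in KO cells with PAMP RNA at 6 h, against 662, 701 and 687 in KO mock cells. In WT cells it had 359.7, 392 and 346 with PAMP RNA, against 623, 594 and 534 in mock cells. All treated libraries lay below all mock libraries, the KO ones lowest. Fasn fell by 1.14 in KO cells (SE 0.07, adjusted p = 5.1e-19) and 0.67 in WT cells (SE 0.07, adjusted p = 2.84e-11), and was not called at 3 h. Of the first enzymes of the pathway, Acly, which supplies cytosolic acetyl-CoA, fell by 0.39 in KO cells and 0.28 in WT cells, and Acaca, which makes malonyl-CoA, was the 1 member of the 8 not called, with changes of 0.04 and 0.08 (SE 0.07 each).

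**Figure D2:**
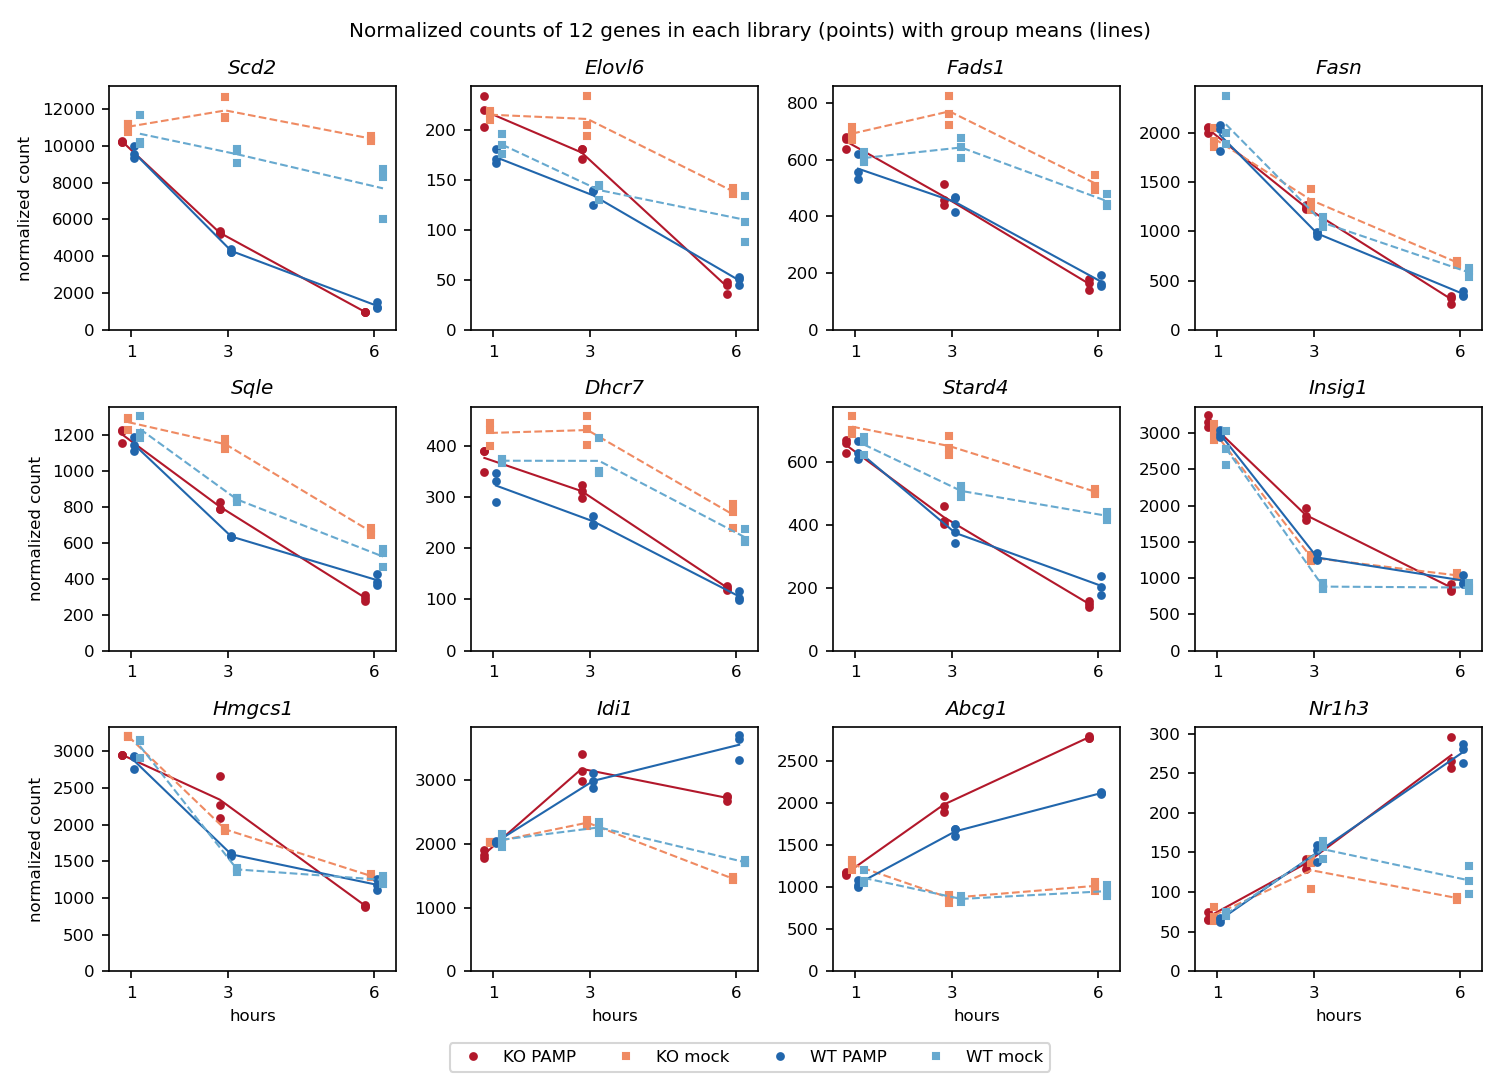
Normalized counts of 12 genes (vertical axes from 0) at 1, 3 and 6 h in each library of KO and WT cells with PAMP RNA (circles) or mock (squares), with lines through group means. Scd2 had 952 to 999 counts in KO cells with PAMP RNA at 6 h against 10259.6 to 10523 in KO mock cells, while Idi1, Abcg1 and Nr1h3 lay above their mock libraries at 6 h.

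In the mevalonate arm 3 of 8 genes rose in each genotype at 6 h (37.5%, against 35.1% of all genes in KO cells and 32.1% in WT cells). In KO cells 3 fell (37.5%, against 36.5% of all genes) and in WT cells 2 (25.0%, against 33.3%), so these shares were near or below those of all genes. Idi1, the isomerase that turns isopentenyl diphosphate into dimethylallyl diphosphate (chr13:8885501-8892451), was the largest riser of the arm. It had 2747, 2753 and 2674 counts in KO cells with PAMP RNA at 6 h, against 1453, 1428 and 1480.3 in KO mock cells. WT cells had 3722, 3316 and 3645 with PAMP RNA, against 1699.5, 1701 and 1745 in mock cells. Treated libraries lay above all mock libraries, and WT cells were the higher of the genotypes with and without PAMP RNA. Idi1 rose by 0.91 in KO cells (SE 0.05, adjusted p = 4.02e-22) and 1.05 in WT cells (SE 0.05, adjusted p = 1.87e-24), after rises of 0.44 and 0.40 at 3 h.

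The other risers of the arm were Pmvk, phosphomevalonate kinase, by 0.43 in KO cells and 0.31 in WT cells, and Fdps, farnesyl diphosphate synthase, by 0.43 and 0.23. With equal library totals both were slightly lower instead, Pmvk by -0.06 in each genotype and Fdps by -0.05 in KO cells and -0.14 in WT cells. Fdps shares 26.7% of its exon bases with the gene Gm43738, so its reads may be split between them, and its WT call was lost without the second WT library with PAMP RNA at 6 h. The fallers were Acat2, a thiolase that makes acetoacetyl-CoA, by 0.91 in KO cells (SE 0.11, adjusted p = 1.29e-09) and 0.65 in WT cells (SE 0.11, adjusted p = 2.77e-06), and Mvd, mevalonate diphosphate decarboxylase, by 0.62 and 0.48. Mvk, mevalonate kinase, and Fdft1, squalene synthase, were not called at 3 or 6 h. Ctsb, a protein-coding gene on the other strand, overlaps 18.3% of the exon bases of Fdft1, and reads of the 2 genes cannot be told apart there without strand.

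Hmgcs1, a synthase early in the arm (chr13:119690379-119708260), rose at 3 h in both genotypes and fell at 6 h in KO cells. At 3 h it rose by 0.27 in KO cells (SE 0.05, adjusted p = 4.12e-05) and by 0.20 in WT cells (SE 0.05, adjusted p = 0.00228). With equal library totals it changed by 0.02 in both, and neither was called. At 6 h it had 881, 903 and 889 counts in KO cells with PAMP RNA, against 1285, 1287 and 1322 in KO mock cells. The WT values were 1101, 1263 and 1172 with PAMP RNA, against 1293, 1190.4 and 1256 in mock cells. The KO groups did not overlap and the WT groups did. Hmgcs1 fell by 0.54 in KO cells (SE 0.05, adjusted p = 2.37e-12) and changed by -0.08 in WT cells (SE 0.05, adjusted p = 0.182).

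In the sterol arm, falls prevailed at 6 h. In KO cells 8 of 10 genes fell and 1 rose (80% and 10%, against 36.5% and 35.1% of all genes). In WT cells 6 of 10 fell and 2 rose (60% and 20%, against 33.3% and 32.1%). Sqle, squalene epoxidase, the first oxygen-dependent step (chr15:59315077-59331192), had 278, 308 and 295 counts in KO cells with PAMP RNA at 6 h, against 684, 659.8 and 643 in KO mock cells. WT libraries had 368, 381 and 429.8 with PAMP RNA and 466, 565 and 542 in mock cells. Treated KO libraries were the lowest of all and mock KO libraries the highest, with no overlap among the 4 groups. Sqle fell by 1.17 in KO cells (SE 0.06, adjusted p = 1.28e-22) and 0.41 in WT cells (SE 0.06, adjusted p = 4.57e-08); at 3 h the changes were -0.52 and -0.40.

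Dhcr7, the reductase of the last step to cholesterol (chr7:143823145-143848410), fell in both genotypes. It had 126, 119 and 122 counts in KO cells with PAMP RNA at 6 h, against 269.9, 287 and 239 in KO mock cells. In WT cells it had 99.1, 102 and 117 with PAMP RNA, against 211, 237 and 215 in mock cells. In each genotype treated libraries lay below all mock libraries. Dhcr7 fell by 1.10 in KO cells (SE 0.08, adjusted p = 1.83e-16) and 1.06 in WT cells (SE 0.08, adjusted p = 1.11e-15), and their difference was -0.05 (SE 0.12, adjusted p = 0.859).

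Of the other sterol enzymes, Lss, lanosterol synthase, fell by 0.54 in KO cells and 0.37 in WT cells. Sc5d, a sterol desaturase, fell by 0.59 and 0.31, Nsdhl, a sterol dehydrogenase, by 0.34 and 0.41, and Ebp, a sterol isomerase, by 0.23 and 0.34. Tm7sf2, a sterol reductase, fell by 0.69 in KO cells (SE 0.17, adjusted p = 0.000304) and was not called in WT cells (-0.19, SE 0.17, adjusted p = 0.318). The 1 gene of the arm that rose in both genotypes was Hsd17b7, a ketosterol reductase, by 0.42 in KO cells and 0.34 in WT cells; with equal library totals its changes were -0.06 and -0.03. Cyp51, lanosterol demethylase, changed by -0.05 in KO cells (SE 0.05, adjusted p = 0.309) and rose by 0.28 in WT cells (SE 0.05, adjusted p = 2.04e-06). The WT value of Cyp51 was -0.10 with equal totals and -0.01 with quantile normalization.

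Among the sensors and transporters, all 6 fell in KO cells at 6 h (100%, against 36.5% of all genes). In WT cells 4 fell and 2 rose (66.7% and 33.3%, against 33.3% and 32.1%), so rises were near the share of all genes. Stard4, a carrier that moves sterol between membranes, had 138, 147 and 157 counts in KO cells with PAMP RNA, against 503, 513 and 497 in KO mock cells. WT cells had 178, 237 and 202 with PAMP RNA, against 415, 440.0 and 428 in mock cells. The 4 groups did not overlap, with treated KO libraries lowest and mock KO libraries highest. Stard4 fell by 1.77 in KO cells (SE 0.07, adjusted p = 4.39e-26) and 1.06 in WT cells (SE 0.07, adjusted p = 1.67e-17).

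Srebf1, which encodes the SREBP that favours fatty acid genes, fell at 3 h by 0.38 in KO cells and 0.45 in WT cells, and at 6 h by 0.48 and 0.28. Scap, the SREBP escort, fell at 6 h by 0.59 in KO cells (SE 0.11, adjusted p = 4.3e-06) and 0.35 in WT cells (SE 0.11, adjusted p = 0.00394); the WT call was lost without the first WT library with PAMP RNA at 6 h. Insig2, a retention factor for SCAP, fell by 0.44 and 0.34 at 6 h, and its WT call was lost without the third mock or the first PAMP RNA library of WT cells.

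Insig1, the retention factor that SREBP itself induces (chr5:28071363-28078662), rose at 3 h and then parted by genotype. At 3 h it had 1800.0, 1856 and 1964 counts in KO cells with PAMP RNA against 1243, 1323 and 1283 in KO mock cells, which is 0.55 higher (SE 0.06, adjusted p = 1.35e-11). In WT cells at 3 h it had 1265, 1249 and 1342 counts with PAMP RNA against 933, 867 and 851 in mock cells, which is 0.54 higher (SE 0.06, adjusted p = 2.61e-11). Both rises stood with equal library totals and with quantile normalization. At 6 h it had 830.0, 855 and 924 in KO cells with PAMP RNA against 1012, 1037 and 1066 in KO mock cells, and 935, 922 and 1045 in WT cells with PAMP RNA against 938, 859 and 817 in WT mock cells. The KO groups did not overlap and the WT groups did. Insig1 fell by 0.26 in KO cells (SE 0.06, adjusted p = 8.45e-05) and rose by 0.15 in WT cells (SE 0.06, adjusted p = 0.0173). The WT call was lost without the second mock library, the third mock library or the third PAMP RNA library, and the WT change was -0.22 with equal totals and -0.12 with quantile normalization. Srebf2, the SREBP that favours sterol genes, likewise fell by 0.13 in KO cells (SE 0.05, adjusted p = 0.0244) and rose by 0.15 in WT cells (SE 0.05, adjusted p = 0.0156). Both calls of Srebf2 were lost when single libraries were left out (without the third KO mock library, the second KO PAMP RNA library or the third one, and without the second WT mock or the third WT PAMP RNA library), and its WT change was -0.23 with equal totals and -0.27 with quantile normalization.

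Of the 4 LXR-linked genes, 3 rose and 1 fell in KO cells at 6 h (75% and 25%, against 35.1% and 36.5% of all genes). In WT cells 2 rose, 1 fell and 1 was not called (50% rose and 25% fell, against 32.1% and 33.3%). Abcg1, an exporter of cholesterol to high-density lipoprotein (chr17:31057675-31117988), had 2799.9, 2774 and 2777 counts in KO cells with PAMP RNA at 6 h, against 959, 1026 and 1059 in KO mock cells. The WT values were 2129, 2111 and 2113 with PAMP RNA, against 1029, 898 and 931 in mock cells. Treated KO libraries were the highest, treated WT libraries next, and the mock libraries of the genotypes overlapped. Abcg1 rose by 1.46 in KO cells (SE 0.06, adjusted p = 1.66e-27) and 1.15 in WT cells (SE 0.06, adjusted p = 2.61e-23), and at 3 h by 1.18 and 0.95. Its 3 h counts were 1969, 2079 and 1891 in KO cells with PAMP RNA against 806, 912 and 896 in KO mock cells, and 1691, 1689 and 1608 in WT cells with PAMP RNA against 827, 893 and 859 in WT mock cells.

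Nr1h3, which encodes LXR alpha (chr2:91184061-91202834), had 266, 296 and 257 counts in KO cells with PAMP RNA at 6 h, against 93.1, 94.1 and 89.9 in KO mock cells. WT libraries had 287, 281 and 263 with PAMP RNA, against 133, 97.9 and 114 in mock cells. All treated libraries lay above all mock libraries and the treated genotypes overlapped. Nr1h3 rose by 1.55 in KO cells (SE 0.11, adjusted p = 1.02e-16) and 1.27 in WT cells (SE 0.11, adjusted p = 1.07e-13), with no call at 3 h.

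Abca1, the exporter to lipid-poor apolipoprotein, went the other way: it rose at 3 h by 0.23 in KO cells and 0.17 in WT cells, and fell at 6 h by 0.34 (SE 0.06, adjusted p = 8.05e-07) and 0.51 (SE 0.06, adjusted p = 6.01e-11). The 3 h call in WT cells was lost without the third WT library with PAMP RNA, and the 3 h values were -0.02 and -0.01 with equal totals, and -0.07 and -0.06 with quantile normalization. Mylip, a ubiquitin ligase that marks lipoprotein receptors for degradation, rose by 0.56 in KO cells at 6 h (SE 0.08, adjusted p = 6.85e-08) and was not called in WT cells (0.16, SE 0.08, adjusted p = 0.0899). The KO change of Mylip was 0.08 with equal totals and not called. The summed macrophage markers were also higher with PAMP RNA at 6 h, at 16623.5 to 17268.8 against 12597.3 to 13147.7 in KO mock cells, and at 13391.6 to 14706.2 against 11592.1 to 12096.5 in WT mock cells; their part in these results was not tested.

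The test of the difference between genotypes, KO response minus WT response, called no member at 1 or 3 h by limma, edgeR or DESeq2. At an unadjusted p under 0.05 there were 0 members at 1 h and 1 at 3 h, higher in KO. Over all genes 0.118% were called with a higher and 0% with a lower KO response at 1 h, and 2.58% and 0.557% at 3 h. The share of higher KO responses among all calls at 3 h was 82.3%, against 48.5% with equal totals and 64.0% with quantile normalization. The differences of single members lay between -0.27 and 0.22 at 1 h and between -0.25 and 0.23 at 3 h.

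At 6 h the difference was called for 13 of the 36 members, with a lower KO response in 11 (30.6%) and a higher one in 2 (5.56%). Over all genes a lower KO response was called in 3.81% and a higher one in 6.67%. Of all calls over the genome, 63.6% were higher KO responses, against 23.3% with equal totals and 42.5% with quantile normalization. The median member differed by -0.16, against 0.02 for the median gene. The difference was largest for Scd2 (-0.88, SE 0.11, adjusted p = 1.23e-07), Sqle (-0.76, SE 0.08, adjusted p = 1.24e-08) and Stard4 (-0.71, SE 0.10, adjusted p = 4.62e-06). Msmo1, methylsterol monooxygenase, followed at -0.62 (SE 0.09, adjusted p = 2.19e-06). It had 505, 471 and 420.4 counts in KO cells with PAMP RNA at 6 h against 697, 607 and 698 in KO mock cells, and 605, 627 and 580.0 in WT cells with PAMP RNA against 557, 559 and 571 in WT mock cells. The KO groups lay apart in the downward direction and the WT groups in the upward one, although the WT change of 0.10 (SE 0.06) was not called.

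Elovl6 differed by -0.56 (SE 0.16, adjusted p = 0.0155), Fasn by -0.47 (SE 0.10, adjusted p = 0.00138) and Hmgcs1 by -0.46 (SE 0.08, adjusted p = 3.7e-05). Insig1 differed by -0.41, Cyp51 by -0.33, Srebf2 by -0.28 and Sc5d by -0.27. The 2 with a higher KO response were both LXR-linked: Mylip at 0.40 (SE 0.12, adjusted p = 0.0188) and Abcg1 at 0.30 (SE 0.08, adjusted p = 0.0078). By role, the lower KO responses were 1 of 8 genes in the mevalonate arm, 4 of 10 in the sterol arm, 3 of 6 in sensing and transport and 3 of 8 in fatty acid synthesis.

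All 11 lower KO responses remained with quantile normalization and with equal totals, and 9 of the 11 with edgeR and with DESeq2, where Elovl6 and Sc5d were lost. The 2 higher KO responses were lost with quantile normalization and with equal totals, and those splits were 13 lower to 0 higher and 17 lower to 0 higher, in that order. Single libraries also ended calls: Elovl6 without the third WT mock or the second KO PAMP RNA library, Sc5d without any of 4 libraries, Mylip without any of 4 and Srebf2 without the third WT PAMP RNA library. KO mock cells were above WT mock cells for many of these genes, as described below, so the mock libraries enter these differences too. For Sqle the treated KO mean was 293 against 393 in treated WT cells, and the mock KO mean 662 against 524 in mock WT cells. Markers moved with the same contrast: at 6 h the difference of responses, KO minus WT, was 0.41 for the dendritic cell gene Ccr7 (SE 0.08, adjusted p = 0.000238), and 0.59 for each of the macrophage genes Fcgr1 and Mertk (SE 0.09; adjusted p = 2.01e-05 and 1.7e-05), while Itgax, Cd74, H2-Ab1, Zbtb46 and Csf1r were not called. Their part in the members' differences was not tested.

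**Figure D3:**
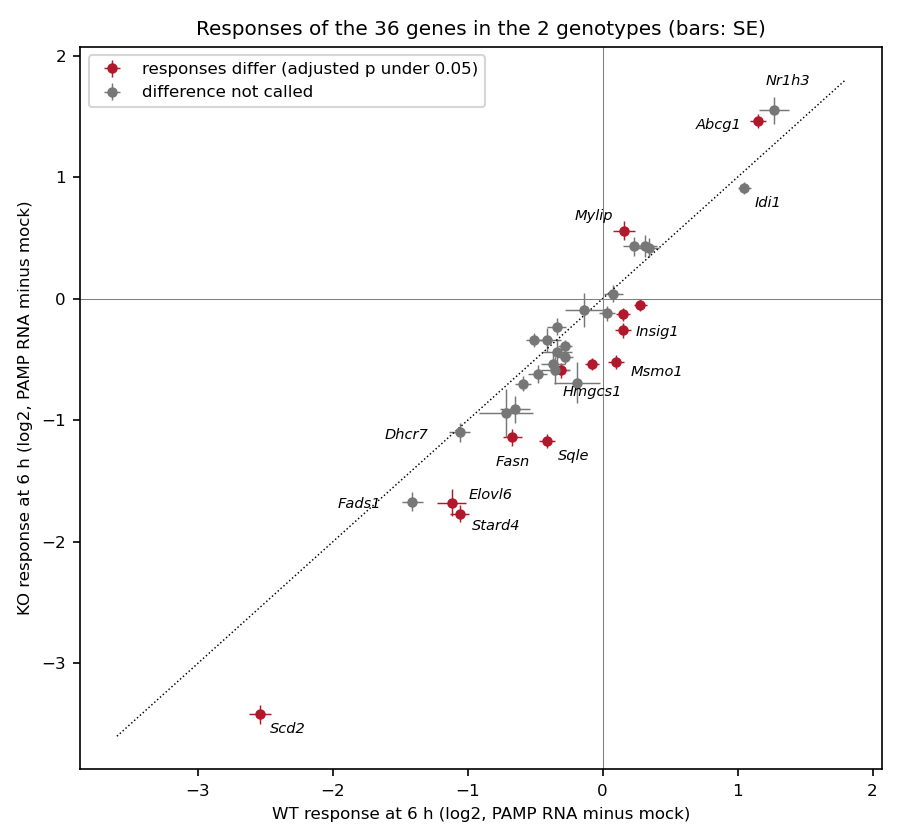
Log2 change with PAMP RNA at 6 h in KO cells (vertical) against WT cells (horizontal) for the 36 genes, with SE bars and a dotted line of equal change; red marks the 13 genes whose responses differed between genotypes at adjusted p under 0.05. Of the red points 11 lie below the line, Scd2 lowest at -3.42 in KO cells and -2.54 in WT cells, and 2 above it, Abcg1 and Mylip.

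The response shifted between 3 and 6 h for most of the members, mostly downward. The 6 h response minus the 3 h response, each against its own mock cells, was called lower in 20 members and higher in 5 in KO cells, and lower in 15 and higher in 4 in WT cells. Over all genes 18.1% were lower and 22.8% higher in KO cells, and 15.0% and 19.3% in WT cells. The median member moved by -0.37 in KO cells and -0.16 in WT cells, against 0.019 and 0.012 for the median gene. Of all calls, 55.7% in KO cells and 56.2% in WT cells were higher, against 23.1% and 22.7% with equal totals, and for WT cells 46.1% with quantile normalization. Scd2 had the largest drop of the 36 in both, with -2.25 in KO cells and -1.39 in WT cells, and Nr1h3 the largest gain, by 1.45 and 1.31. Insig1 moved by -0.80 in KO cells (SE 0.08, adjusted p = 2.03e-11) and -0.39 in WT cells (SE 0.08, adjusted p = 0.000128), and Hmgcs1 by -0.81 (SE 0.08, adjusted p = 4.58e-12) and -0.28 (SE 0.08, adjusted p = 0.00332). Abca1 moved by -0.57 in KO cells and -0.68 in WT cells. Idi1 gained 0.46 and 0.65.

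The mock cells that serve as the baseline were not level in time. From 1 to 3 h, 11 members fell and 4 rose in KO mock cells, against 21.8% and 21.0% of all genes, and 15 fell and 4 rose in WT mock cells, against 22.2% and 21.3% of all genes. From 3 to 6 h, 27 of the 36 fell and 3 rose in each genotype, or 75.0% and 8.33%, whereas over all genes 21.4% fell and 21.9% rose in KO mock cells and 21.7% and 22.0% in WT mock cells. Rises made up 50.6% and 50.3% of all calls from 3 to 6 h, against 38.4% and 38.5% with equal totals. The median member changed by -0.04 and then -0.41 in KO mock cells, and by -0.09 and then -0.35 in WT mock cells, with median genes of -0.008, 0.004, 0.002 and 0.001 in the same order.

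Insig1 had the largest change from 1 to 3 h in both genotypes. Its mean was 3019, 1283 and 1038 counts at 1, 3 and 6 h in KO mock cells (SD 109, 40.3 and 27.2) and 2793, 884 and 871 in WT mock cells (SD 230, 43.5 and 61.5). Hmgcs1 averaged 3204, 1934 and 1298 in KO mock cells (SD 5.66, 25.3 and 20.7) and 3071, 1389 and 1246 in WT mock cells (SD 138, 27.3 and 51.8). Fasn averaged 1938, 1314 and 683 in KO mock cells (SD 99.5, 109 and 20.1) and 2083, 1086 and 584 in WT mock cells (SD 251, 56.2 and 45.5). These SREBP-induced genes were highest at 1 h, and the change to 3 h was -1.23 in KO mock cells and -1.66 in WT mock cells for Insig1, and -0.73 and -1.14 for Hmgcs1; the difference between these drifts was not tested. Insig2 and Nr1h3 ran the other way, with 1 to 3 h rises of 0.71 and 0.83 in KO mock cells and 0.75 and 1.08 in WT mock cells. Abca1 moved late, with a 3 to 6 h rise of 1.03 in KO mock cells (SE 0.06, adjusted p = 1.08e-19) and 1.01 in WT mock cells (SE 0.06, adjusted p = 2.89e-19). Cells with PAMP RNA also had less Insig1 at 3 h than their own 1 h level of 3082 to 3246 counts in KO cells and 2944 to 3040 in WT cells.

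**Figure D4:**
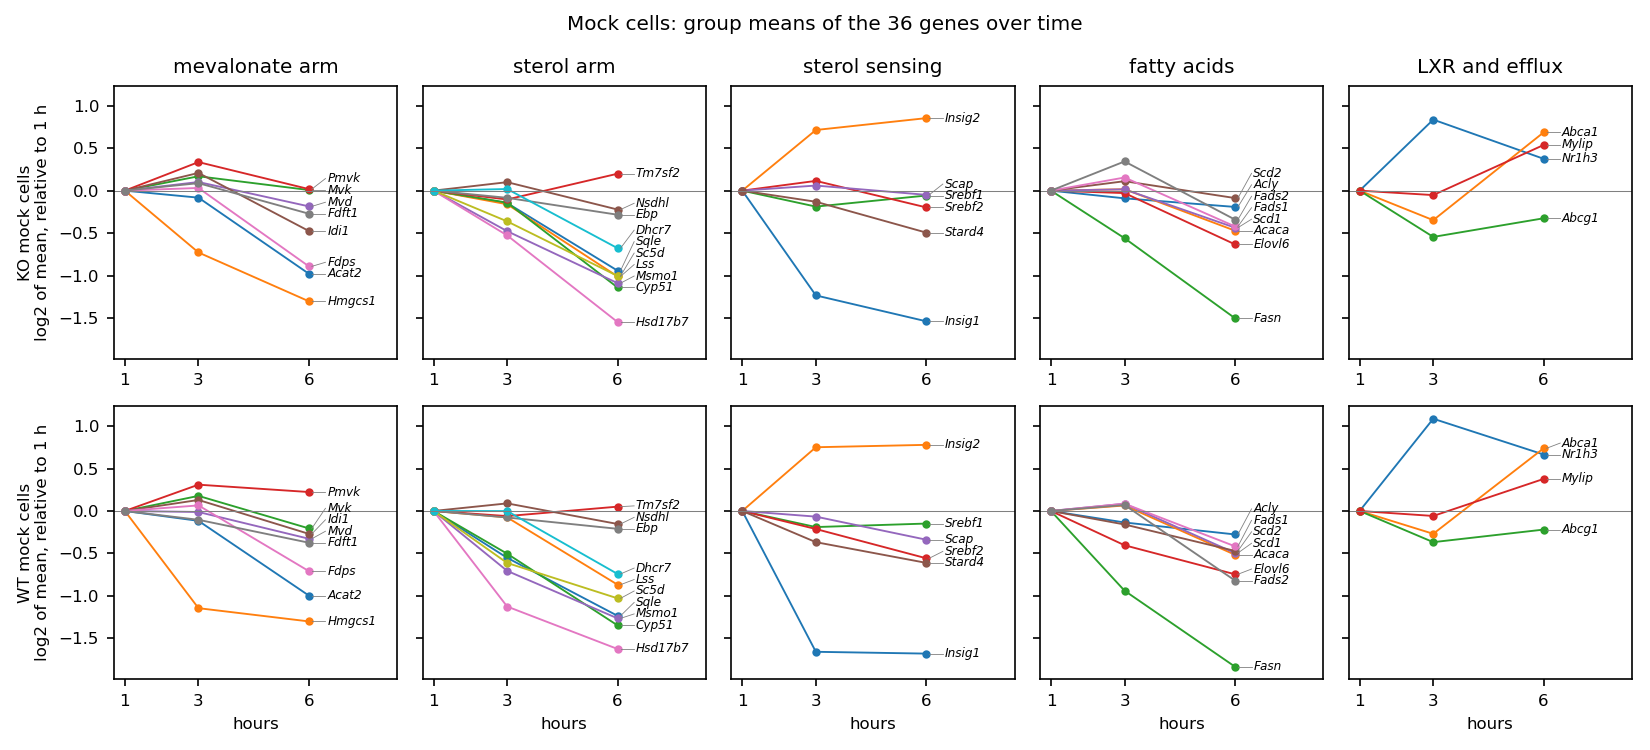
Group means of the 36 genes in KO mock cells (top) and WT mock cells (bottom) at 1, 3 and 6 h, as log2 relative to the 1 h mean, in panels by role. Insig1, Hmgcs1, Fasn and Hsd17b7 show the steepest declines in both genotypes, while Insig2 stays above its 1 h level and Abca1 ends above it after a dip at 3 h.

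Without PAMP RNA, cells labelled KO had more of most of these transcripts than WT cells. Over the 3 times together, 25 of the 36 members were higher and 4 lower in KO mock cells, or 69.4% and 11.1%, against 10.5% and 11.7% of all genes. The median difference was 0.16, against 0.009 for the median gene, so most differences were small. The largest were Fads2 at 0.40 (SE 0.11, adjusted p = 0.00717), Elovl6 at 0.38 (SE 0.06, adjusted p = 8.39e-06), Lss at 0.36 (SE 0.05, adjusted p = 1.36e-07), Acat2 at 0.32 (SE 0.07, adjusted p = 0.000231) and Insig1 at 0.30 (SE 0.03, adjusted p = 2.75e-10). The 4 lower ones were Abca1 (-0.28, SE 0.03, adjusted p = 3e-09), Nr1h3, Mylip and Idi1 (-0.07, SE 0.03, adjusted p = 0.0438), so 3 of the 4 LXR-linked genes were lower and Abcg1 was higher, by 0.10. The call of Idi1 was lost with no filter, with quantile normalization, with equal totals and without any of 13 single libraries, and that of Nr1h3 without any of 3 (the third KO library at 1 h, the second KO library at 3 h, the first WT library at 6 h). All 25 higher calls remained with quantile normalization and with equal totals, and 24 with DESeq2 and with no filter, where Hsd17b7 was lost. The calls of Hsd17b7 and Nsdhl were each lost without any of 11 single libraries, and that of Fasn without the first WT library at 1 h or the third one at 6 h. Dendritic cell markers differed in the same mock cells: KO minus WT was -0.78 for Ccr7 (SE 0.03, adjusted p = 1.72e-24), -0.65 for H2-Ab1, -0.52 for Cd74, -0.41 for Zbtb46 and -0.10 for Itgax, all called. The macrophage gene Csf1r was higher in KO mock cells (0.10, SE 0.03, adjusted p = 0.00538). The mock groups thus differed in marker levels as well as in genotype, and the part of the markers in the members' differences was not tested.

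The mock comparison was also split by time, a choice made after the data were seen, with no test of whether the genotype difference changed with time. At 1 h 4 members were higher and 1 lower in KO mock cells, against 4.34% and 7.28% of all genes. At 3 h 19 were higher and 1 lower, against 3.68% and 4.54%, and at 6 h 15 were higher and 2 lower, against 5.0% and 6.04%. The median member differed by 0.07, 0.225 and 0.195 at 1, 3 and 6 h, with the median gene within 0.011 of 0 each time. At 3 h Elovl6 differed by 0.59 (SE 0.11, adjusted p = 0.000198), Insig1 by 0.54 (SE 0.06, adjusted p = 6.37e-10), Hsd17b7 by 0.50 (SE 0.08, adjusted p = 2.07e-05) and Hmgcs1 by 0.48 (SE 0.05, adjusted p = 5.23e-09). At 1 h none of these 4 was called, with values from -0.09 for Hsd17b7 to 0.22 for Elovl6, while Lss (0.44), Fdps (0.29), Srebf1 (0.23) and Abcg1 (0.20) were called higher. Abca1 was lower in KO mock cells at every time, by 0.23, 0.31 and 0.29 at 1, 3 and 6 h. Genotype and the cultures it came from cannot be told apart.

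**Figure D5:**
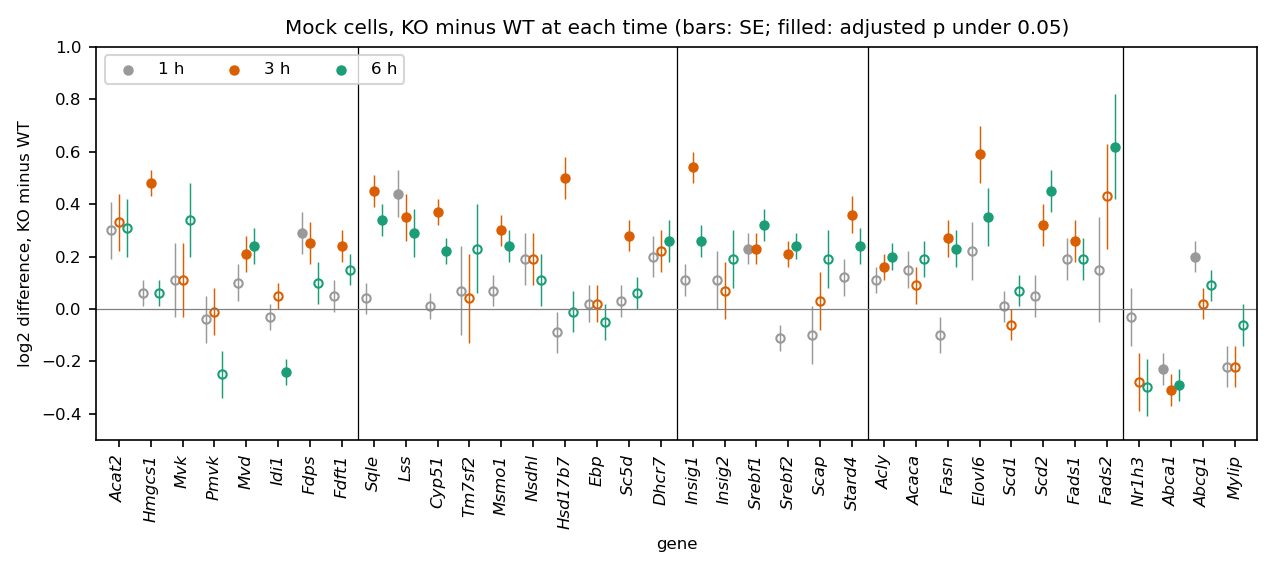
Log2 difference in mock cells, KO minus WT, of each of the 36 genes at 1, 3 and 6 h, with SE bars and filled symbols at adjusted p under 0.05. At 3 h 19 filled symbols lie above 0, with Elovl6 at 0.59 and Insig1 at 0.54, and Abca1 lies below 0 at all 3 times.

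Other genes of lipid synthesis and of sterol handling, from lists that do not overlap the 36, were set beside them. Of 20 further lipid synthesis genes tested, 6 rose and 11 fell in KO cells at 6 h (30.0% and 55.0%, against 35.1% and 36.5% of all genes), and 6 rose and 9 fell in WT cells (30.0% and 45.0%, against 32.1% and 33.3%). Lpin1, a phosphatidate phosphatase of triglyceride synthesis, had 48.7 to 52.3 counts in KO cells with PAMP RNA at 6 h against 435 to 481 in KO mock cells, and 54.4 to 70.0 in WT cells with PAMP RNA against 400.3 to 461 in WT mock cells. It changed by -3.17 in KO cells (SE 0.10, adjusted p = 1.38e-30) and -2.74 in WT cells (SE 0.10, adjusted p = 7.4e-28). The elongase Elovl7 fell by 1.51 and 1.27, and the acyl-CoA synthetase Acsl3 by 1.56 and 1.26. Acsl1, a related synthetase, rose instead, by 2.37 in KO cells (SE 0.05, adjusted p = 5.47e-37) and 1.73 in WT cells (SE 0.05, adjusted p = 3.25e-31), a difference of 0.65 (SE 0.07, adjusted p = 2.68e-08).

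Of 17 further genes of sterol handling, 7 rose and 8 fell in KO cells at 6 h (41.2% and 47.1%, against 35.1% and 36.5% of all genes), and 5 rose and 7 fell in WT cells (29.4% and 41.2%, against 32.1% and 33.3%). Ch25h, whose enzyme makes an oxysterol that holds SREBPs inactive and activates LXR, had 1491, 1253 and 1316 counts in KO cells with PAMP RNA at 6 h, against 21.2, 11.2 and 11.5 in KO mock cells. In WT cells it had 495, 383 and 515 with PAMP RNA, against 25.2, 5.6 and 13.5 in mock cells. Treated KO libraries were above treated WT libraries without overlap, and mock libraries of both genotypes were near 0. Ch25h rose by 6.49 in KO cells (SE 0.27, adjusted p = 8.22e-26) and 5.09 in WT cells (SE 0.27, adjusted p = 1.76e-21), and the difference was 1.40 (SE 0.39, adjusted p = 0.0122). It was also called higher at 3 h, by 6.40 in KO cells and 5.63 in WT cells, and its part in the members' changes was not tested. Stard3, a carrier of endosomal sterol, rose by 1.88 and 1.63 at 6 h, and Plin2, a lipid droplet coat protein, by 1.26 and 1.09. Rxra, the partner of LXR on DNA, fell by 1.44 in KO cells and 1.34 in WT cells.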

How the data were processed

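RNA-seq values of 36 mouse dendritic cell libraries were used. Per the labels' protocols, cDNA from a SMARTer kit was barcoded with Nextera XT and read as 100-base single reads. Per the submitters' processing notes, the tools were TopHat, Cufflinks and DESeq2 with GRCm38 (mm10); no source used here gives versions or counting rules. The authors deposited 1 signal value per gene and library, a DESeq-normalized count. Every value (100%, tolerance 0.01 read) was a whole multiple of 1 step, so whole reads were recovered for edgeR and DESeq2.

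Tests used limma 3.58.1 in R 4.3.3 with a mean-variance trend on log2(value + 1), which understates changes of low genes, with 12 group means and 24 residual degrees of freedom. Alternatives were other pseudocounts and filters, quantile normalization, equal library totals, a replicate block, the compared groups alone, edgeR 4.0.16, DESeq2 1.42.0 and leaving out each library. The procedure was tried on simulated data.

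Members, lists, motifs and tests were chosen with earlier results of these data known. All library values are given at 6 h for members with a called response of at least 1 (log2) and the largest change of each role. Insig1, Hmgcs1 and Msmo1, and the 3 h values, were added after their values were seen. Of each further list, the 4 genes with the largest called WT change at 6 h are named. Hacd2, Adgre1 and Ly6g were not analysed here.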

Additional observations from a re-analysis of the deposited data

Results flagged for a closer look

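Responses to PAMP RNA that differed between genotypes or between times by limma, at an adjusted p under 0.05 over all genes, are gathered here. At 6 h the KO response minus the WT response was below 0 for 11 members, at -0.88 for Scd2, -0.76 for Sqle, -0.71 for Stard4, -0.62 for Msmo1, -0.56 for Elovl6, -0.47 for Fasn, -0.46 for Hmgcs1, -0.41 for Insig1, -0.33 for Cyp51, -0.28 for Srebf2 and -0.27 for Sc5d. It was above 0 for 2 members, at 0.40 for Mylip and 0.30 for Abcg1; both of these were lost with quantile normalization and with equal library totals, and Mylip also without any of 4 single libraries. Elovl6 and Sc5d were lost with the compared groups alone, edgeR and DESeq2, Elovl6 also without either of 2 libraries and Sc5d without any of 4, and Srebf2 without 1.

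In KO cells the 6 h response minus the 3 h response was below 0 for 20 members, at -2.25 for Scd2, -1.43 for Elovl6, -1.15 for Stard4, -1.07 for Fasn, -0.96 for Fads1, -0.83 for Acat2, -0.81 for Hmgcs1, -0.80 for Insig1, -0.74 for Tm7sf2, -0.65 for Sqle, -0.64 for Dhcr7, -0.57 for Abca1, -0.49 for Sc5d, -0.46 for Scd1, -0.45 for Msmo1, -0.40 for Lss, -0.39 for Mvd, -0.26 for Acly, -0.25 for Ebp and -0.19 for Srebf2. The contrast was above 0 for 5 members, at 1.45 for Nr1h3, 0.55 for Mylip, 0.46 for Idi1, 0.29 for Fdps and 0.27 for Abcg1. Of these KO calls, Ebp was lost with quantile normalization, with the compared groups alone, with edgeR, with DESeq2 and without any of 8 single libraries. Srebf2 was lost with no filter, with edgeR and without any of 8, and Fdps with no filter, with equal totals, with DESeq2 and without any of 7. Abcg1 was lost with equal totals and with quantile normalization, and Tm7sf2 without the first KO library with PAMP RNA at 3 h.

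In WT cells the same contrast was below 0 for 15 members, at -1.39 for Scd2, -1.06 for Elovl6, -0.90 for Fads1, -0.68 for Abca1, -0.62 for Stard4, -0.52 for Acat2, -0.52 for Fasn, -0.51 for Dhcr7, -0.39 for Insig1, -0.35 for Nsdhl, -0.32 for Ebp, -0.28 for Hmgcs1, -0.26 for Sc5d, -0.25 for Scd1 and -0.19 for Acly. It was above 0 for 4 members, at 1.31 for Nr1h3, 0.65 for Idi1, 0.21 for Cyp51 and 0.20 for Abcg1. Of these WT calls, Nsdhl was lost with a pseudocount of 4, no filter, quantile normalization, the replicate block, edgeR, DESeq2 and without any of 9 single libraries. Abcg1 was lost with no filter, quantile normalization, equal totals, DESeq2 and without any of 8. Acly was lost with no filter, the compared groups alone, edgeR and without any of 6. Cyp51 was lost with both other scalings and without 1 library, Acat2 without either of 2, and Ebp, Sc5d and Scd1 without 1 each. Because mock cells themselves drifted between 3 and 6 h, these contrasts hold the drift of the mock libraries as well as that of the treated ones.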

How the results depend on the processing

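The counts of called members stayed within 1.5 times the reported ones under every alternative tried except 1: with equal library totals 28 members (3 rises, 25 falls) were called in KO cells at 3 h, in place of 16. Split by time, KO and WT mock cells differed in 5 members at 1 h, 20 at 3 h and 17 at 6 h, in place of 29 over all times. With quantile normalization, values of the opposite sign to those reported were, in KO cells at 3 h -0.06 for Hmgcs1, -0.18 for Fdft1, -0.29 for Cyp51, -0.29 for Srebf2 and -0.07 for Abca1. They were also, in WT cells at 3 h -0.01 for Hmgcs1, -0.15 for Cyp51, -0.22 for Srebf2 and -0.06 for Abca1. They were also, in WT cells at 6 h -0.18 for Fdft1, -0.01 for Cyp51, -0.12 for Insig1 and -0.27 for Srebf2. With equal library totals, values of the opposite sign to those reported were, in KO cells at 3 h -0.19 for Fdft1, -0.20 for Cyp51, -0.24 for Ebp, -0.19 for Srebf2, -0.02 for Abca1 and -0.24 for Mylip. They were also, in WT cells at 3 h -0.11 for Cyp51, -0.15 for Msmo1, -0.13 for Srebf2, -0.17 for Acaca and -0.01 for Abca1. They were also, in KO cells at 6 h -0.06 for Pmvk, -0.05 for Fdps, -0.06 for Hsd17b7 and -0.44 for Acaca. They were also, in WT cells at 6 h -0.06 for Pmvk, -0.14 for Fdps, -0.34 for Fdft1, -0.10 for Cyp51, -0.27 for Msmo1, -0.03 for Hsd17b7, -0.22 for Insig1, -0.23 for Srebf2, -0.29 for Acaca and -0.21 for Mylip. For Abcg1 the 6 h minus 3 h contrast was 0.00 in KO cells and -0.01 in WT cells with quantile normalization. Equal totals shift the median gene by -0.25 in KO cells and -0.18 in WT cells at 3 h, -0.48 and -0.37 at 6 h, and -0.11 for the genotype difference at 6 h. Splits of rises to falls with quantile normalization were 4 to 17 in KO cells and 4 to 15 in WT cells at 3 h, and 7 to 27 and 6 to 23 at 6 h.

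Leaving out single libraries gave 15 to 19 called members in KO cells and 14 to 17 in WT cells at 3 h, 31 to 33 and 26 to 30 at 6 h, and 11 to 14 for the genotype difference at 6 h. It gave 25 to 29 for KO against WT mock cells, 12 to 15 and 17 to 19 for mock cells from 1 to 3 h in KO and WT cells, 28 to 30 and 25 to 29 from 3 to 6 h, and 22 to 26 and 14 to 21 for the 6 h minus 3 h contrast. The 1 h responses and the 1 and 3 h genotype differences kept 0 calls. Same-numbered libraries did not deviate together (median correlation of deviations 0, range -0.11 to 0.18), and 12 of 36 libraries were closest to their own number; with the replicate block 17 members were called in KO cells at 3 h, in place of 16, and 32 and 29 in KO and WT cells at 6 h, as reported. Depth limits the genes with few reads most: SEs reached 0.20 for Fads2 and 0.17 for Tm7sf2, against 0.05 for Hmgcs1 and Idi1.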
